A study of Mus musculus with 16 samples.

Results

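The broad SP4-only open regions are the stretches of chromatin that were called open in CD4 single positive (SP4) thymocytes, were at least 200 bp wide, and shared no base pair with a peak called in double negative (DN), double positive (DP) or CD8 single positive (SP8) thymocytes. Applying this rule to the 4 peak lists left 2080 peaks. They were 2080 of the 115074 peaks of the SP4 list and 2080 of its 64984 peaks of 200 bp or more, a share of 3.2%. The same rule kept 14.1% of the wide DN peaks (12209 of 86575), 2.02% of the wide DP peaks (1210 of 59847) and 1.64% of the wide SP8 peaks (1024 of 62593). Presence in a list and width chose the members, so both are given below as a description and were not tested.

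The assay was ATAC-seq, in which the Tn5 transposase inserts sequencing adapters where DNA is accessible. The mice were wild type C57BL/6J animals of 9 weeks, with no transgene, deletion or treatment in any group. From each of 4 mice, DN, DP, SP4 and SP8 thymocytes were sorted by flow cytometry, which gave 16 libraries, 4 per stage. The sort first removed cells carrying markers of erythroid, B, myeloid, dendritic, natural killer and gamma delta T cells, and SP4 cells were then taken as CD4+ CD8- CD3+. The reads of the 4 mice were pooled before peaks were called, so each stage has 1 list and no value here has an error between mice. The lists hold no read counts, and the depth behind a single peak is therefore unknown.

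In the thymus, T cell precursors pass from the DN to the DP stage, where both coreceptors are present, and cells whose receptor recognizes MHC class II then become CD4 helper cells. ZBTB7B (ThPOK) is the factor best known for holding cells in the CD4 lineage, GATA3 acts upstream of it, and TCF7 (TCF-1) and LEF1 are HMG box factors used throughout T cell development. Regions that open at 1 stage are commonly enhancers, which lie away from promoters and are read by the transcription factors present in that cell. Regulatory T cells and recently matured helper cells are among the cells in a CD4 single positive sort.

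Against its own labels, the SP4 list held a peak over a coding transcription start site (TSS) of all 14 CD4 lineage genes and all 22 T cell receptor signalling genes that were checked, and over none of 10 hepatocyte genes. It also held such a peak at 5 of 10 B cell, 2 of 10 myeloid, 3 of 10 dendritic, 3 of 10 natural killer, 4 of 10 erythroid and 4 of 10 thymic epithelial genes. An SP4 peak also covered a start site at 8 of 12 CD8 and cytotoxic and 3 of 10 neuronal genes. The DN, DP and SP8 lists had 5 or 6 of these B cell and 2 to 4 of these myeloid start sites under a peak. They also had 13 of the 14 CD4 lineage genes each, and 21, 21 and 22 of the 22 signalling genes. These counts hardly separate the stages. Itgam, a myeloid marker, had a peak over its start site at all 4 stages. The part of other cells in the members was not tested.

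The sequences that recurred in the members were short words read by GATA factors (AGATAA or TGATAA) and by TCF7 and LEF1 (CTTTGAA or CTTTGAT), searched on both strands in the 200 bp around each summit. The 8 windows here show such words in members, each labelled by the gene of the nearest coding start site. The peaks lay from 8948 bp (Bach2) to 366810 bp (Tox) from that start site. The windows were chosen because they hold at least 1 such word, so they are examples and not a sample of the members. Each is the + strand of mm10 (GRCm38), 200 bases centred on the summit, outside annotated exons, with the GATA and TCF7/LEF1 words of either strand in capitals.
Rybp, chr6:100410149-100410348: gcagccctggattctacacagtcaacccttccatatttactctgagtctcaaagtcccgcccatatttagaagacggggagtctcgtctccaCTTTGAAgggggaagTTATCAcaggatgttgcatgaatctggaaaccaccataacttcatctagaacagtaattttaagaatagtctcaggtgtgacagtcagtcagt
Foxp1, chr6:99136306-99136505: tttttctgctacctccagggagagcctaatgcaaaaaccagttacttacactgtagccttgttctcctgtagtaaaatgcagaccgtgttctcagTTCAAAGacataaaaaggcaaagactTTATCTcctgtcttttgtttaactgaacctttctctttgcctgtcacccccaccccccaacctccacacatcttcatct
Il21, chr3:37209480-37209679: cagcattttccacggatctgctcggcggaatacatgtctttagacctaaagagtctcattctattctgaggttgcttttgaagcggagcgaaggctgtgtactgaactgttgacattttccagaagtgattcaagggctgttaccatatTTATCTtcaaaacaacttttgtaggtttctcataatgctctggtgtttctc
Icos, chr1:61160602-61160801: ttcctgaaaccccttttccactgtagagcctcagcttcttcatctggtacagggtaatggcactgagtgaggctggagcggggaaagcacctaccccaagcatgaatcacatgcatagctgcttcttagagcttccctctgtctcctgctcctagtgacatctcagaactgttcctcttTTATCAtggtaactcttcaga
Ctla4, chr1:60893328-60893527: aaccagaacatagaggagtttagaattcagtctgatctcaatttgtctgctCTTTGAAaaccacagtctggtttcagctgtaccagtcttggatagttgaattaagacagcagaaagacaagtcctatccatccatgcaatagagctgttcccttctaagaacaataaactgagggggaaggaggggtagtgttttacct
Tox, chr4:7358430-7358629: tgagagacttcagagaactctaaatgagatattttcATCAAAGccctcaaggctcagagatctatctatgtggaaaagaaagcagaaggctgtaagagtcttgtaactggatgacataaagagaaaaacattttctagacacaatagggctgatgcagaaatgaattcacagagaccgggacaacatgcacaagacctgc
Gata3, chr2:9652786-9652985: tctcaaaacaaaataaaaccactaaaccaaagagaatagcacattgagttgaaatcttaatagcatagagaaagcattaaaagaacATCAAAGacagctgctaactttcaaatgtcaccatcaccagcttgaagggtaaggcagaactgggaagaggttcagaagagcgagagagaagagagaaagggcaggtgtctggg
Bach2, chr4:32426534-32426733: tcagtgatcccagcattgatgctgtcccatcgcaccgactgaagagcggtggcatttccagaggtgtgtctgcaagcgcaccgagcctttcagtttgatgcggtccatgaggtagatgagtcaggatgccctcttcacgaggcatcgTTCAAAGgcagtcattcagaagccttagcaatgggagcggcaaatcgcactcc

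The Rybp and Foxp1 windows held 1 word of each kind. The Rybp window lay 122633 bp from the nearest Rybp start site, in no annotated gene, and the Foxp1 window lay inside the Foxp1 gene, in an intron. RYBP is a subunit of Polycomb repressive complex 1, and FOXP1 is a forkhead factor that keeps naive T cells quiescent. The Il21 and Icos windows held 1 GATA word and no TCF7/LEF1 word. The Ctla4, Tox, Gata3 and Bach2 windows held the reverse, 1 TCF7/LEF1 word and no GATA word.

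A GATA word was present in 548 of the 2080 members, 26.3% (95% Wilson interval 24.5 to 28.3%). Among the other sets the share was 17.4% of the narrow SP4-only peaks, those under 200 bp, and 11.3% of the 51746 wide SP4 peaks that overlapped a peak of all 3 other stages. It was 15.0% of the broad DN-only, 9.17% of the broad DP-only and 13.3% of the broad SP8-only peaks. The members had the higher share on 19 of 19 autosomes against each of these 5 sets. Wilson intervals here cover counting error only, and neighbouring peaks are not independent.

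A TCF7/LEF1 word was present in 401 members, 19.3% (17.6 to 21.03%). The corresponding shares were 12.1% of the narrow SP4-only peaks, 8.88% of the wide peaks shared by all stages, 8.59% of the DN-only, 9.50% of the DP-only and 11.6% of the SP8-only peaks. The members were higher on 18 of 19 autosomes against the narrow SP4-only peaks, on 19 against the shared, DN-only and DP-only peaks, and on 17 against the SP8-only peaks. Words of SOX factors (AACAAAG or AACAATG), HMG box relatives of TCF7, were in 11.4% of members and in 6.12 to 8.63% of the other 5 sets. The SOX word AACAAAG shares the core CTTTG with the TCF7/LEF1 words. Both a GATA and a TCF7/LEF1 word were in 111 members, 5.34%, close to the 5.08% that the product of the separate shares gives. Neither word was in 1242 members, 59.7%.

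Several other words were less frequent in the members than in some of the other sets. E-boxes of the form CAGGTG or CAGCTG, read by E proteins such as TCF3 and TCF12, were in 18.3% (16.7 to 19.99%) of members, against 52.8% of DN-only, 54.1% of DP-only and 20.2% of SP8-only peaks. The RUNX word TGTGGTT was in 5.72% of members and in 19.7% of DN-only and 12.3% of SP8-only peaks, while the DP-only peaks had 3.97%. A core of the CTCF motif (AGGGGGC or AGGTGGC) was in 4.09% of members and 15.6% of the wide shared peaks. CTCF organizes chromatin loops. E-box and CTCF words can overlap by sharing AGGTG. ETS words (CAGGAAG or CCGGAAG) were in 22.4% of members, against 12.3% of SP8-only and 27.4% of wide shared peaks. The NF-kB word, GGGACTTTC or GGGAATTTC, was rare, in 0.913% of members (0.586 to 1.42%) and in 0.221 to 0.412% of the other 5 sets. AP-1 (TGANTCA) was in 9.18% of members and 11.6% of SP8-only peaks. For MYB, NFAT, STAT, IRF, KLF, EGR and FOX words the members' shares were 20.7%, 3.03%, 6.97%, 7.88%, 2.93%, 1.49% and 3.46%, against 22.5%, 3.81%, 7.13%, 6.84%, 6.25%, 3.22% and 3.42% of SP8-only peaks.

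**Figure D1:**
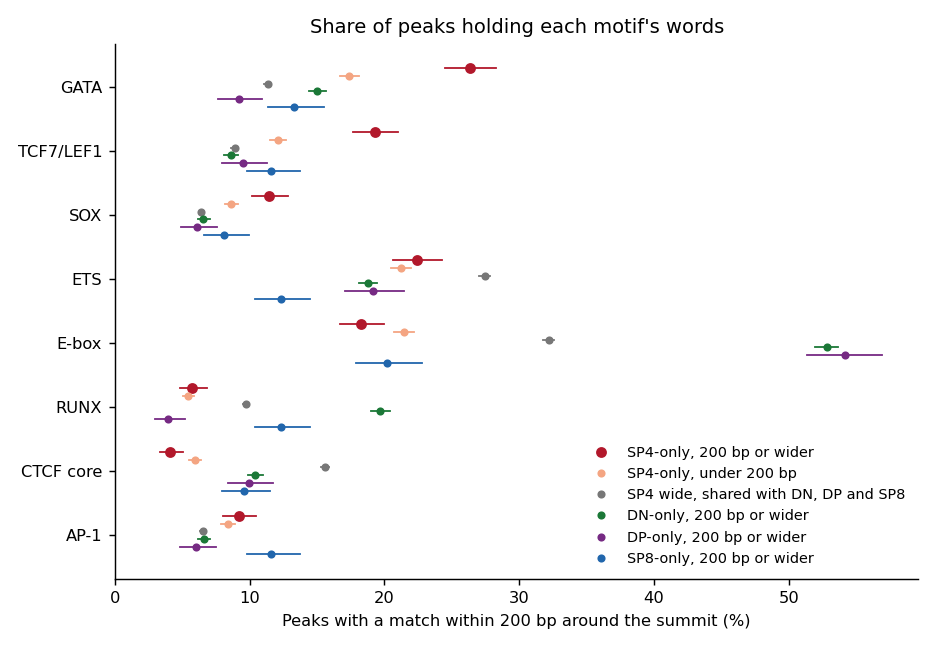
Share of peaks (x axis, percent) with at least 1 match of each motif's words (y axis) in the 200 bp around the summit, for the broad SP4-only peaks and 5 other sets. Points are shares and lines 95% Wilson intervals; the GATA and TCF7/LEF1 points of the broad SP4-only peaks, at 26.3% and 19.3%, lie to the right of all other sets.

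Base composition moved with these shares. The 200 bp windows of the members had a mean GC content of 46.1% (SD 5.47 over 2080 windows), below the 47.6% of narrow SP4-only, 54.1% of wide shared, 51.5% of DN-only, 51.4% of DP-only and 49.3% of SP8-only peaks. They held 2.31 CpG dinucleotides on average, against 6.83 in the wide shared peaks. Among windows with a GC content of 42 to 50% only, a choice added after the shares were seen, a GATA word was in 26.8% of 1207 members. In the same band it was in 18.96% of narrow SP4-only, 18.1% of wide shared, 20.4% of DN-only, 11.1% of DP-only and 14.2% of SP8-only peaks. The TCF7/LEF1 shares in this band were 19.6% in members and 11.3 to 14.2% in the other 5 sets. Within this band, too, the members had a higher share of both words than each of the other 5 sets. For E-boxes the members and the SP8-only peaks had similar shares in this band, 16.3% (14.3 to 18.5%) and 15.8% (13.0 to 19.2%).

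Taller members held both words more often. Height is the fold enrichment over local background at the summit, and the members were cut into 3 groups of equal size by it. A GATA word was in 22.9% of the lowest group (19.97 to 26.2%), 26.1% of the middle group and 29.97% of the highest group (26.7 to 33.5%). The TCF7/LEF1 share went from 13.3% through 21.4% to 23.2%, and the ETS share from 14.3% through 24.1% to 28.8%. E-boxes went the other way, from 22.1% through 18.9% to 13.8%. The tallest members were thus those with the most GATA, TCF7/LEF1 and ETS words and the fewest of these E-boxes.

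The broad SP4-only peaks were narrow and low for wide SP4 peaks. Their width was not particular to SP4, as the same rule gave median widths of 269 bp (DN), 247 bp (DP) and 249 bp (SP8). The members' median width was 250 bp (quartiles 218 and 310 bp, maximum 984 bp), against 413 bp for the wide SP4 peaks shared by all stages. A width of 300 bp or more was reached by 580 members and one of 500 bp or more by 59. Their median fold enrichment was 5.23, from 1.69 to 24.7, which put the median member at percentile 43.6 of the SP4 list. The narrow SP4-only peaks sat at percentile 20.3, all wide SP4 peaks at 71.1 and the wide shared peaks at 75.2. In their own lists the broad DN-only, DP-only and SP8-only peaks sat at 53.1, 37.0 and 31.8. The members thus ranked above the DP-only and SP8-only peaks. Next to the width threshold, 349 SP4-only peaks up to 10 bp below it had a median fold of 4.50 and 286 members less than 10 bp above it one of 4.74, so the threshold falls within a continuous range of peaks.

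**Figure D2:**
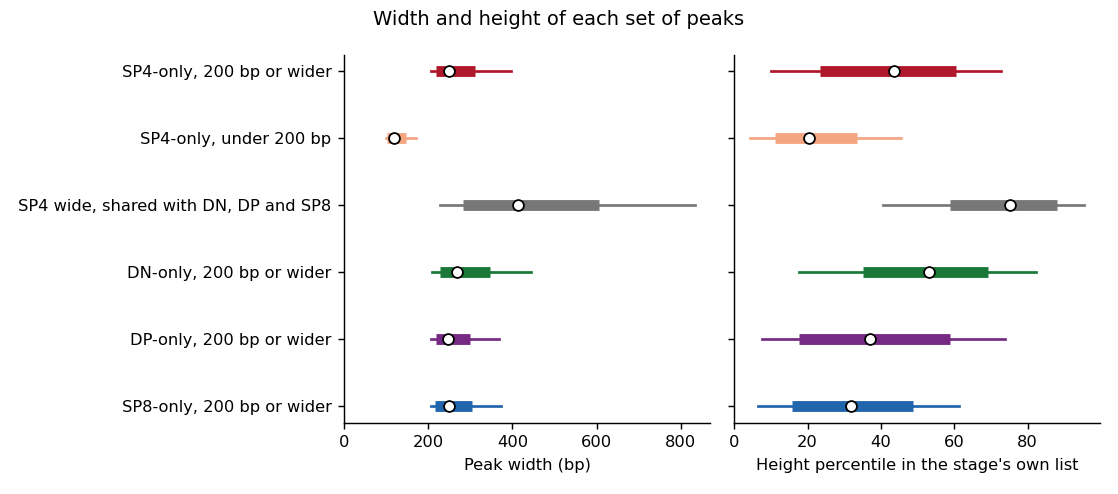
Width in bp (left) and height percentile within the stage's own peak list (right) for 6 sets of peaks. White points are medians, thick bars the quartiles and thin lines run from the 10th to the 90th percentile of peaks; the broad SP4-only peaks have a median width of 250 bp and a median percentile of 43.6, between the narrow SP4-only and the wide shared peaks.

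Most members stood near other open chromatin. The nearest peak of another stage was a median of 2406 bp away. It lay within 1 kb for 638 members (30.7%), within 10 kb for 1748 (84.0%), and within 100 bp for 74 (3.56%). The nearest other-stage peak was a DN peak for 905 members, an SP8 peak for 782 and a DP peak for 461, ties counted for each stage, while the DN list was also the longest, with 150139 peaks against 107110 and 104411. Just inside the overlap rule were 7 members at most 10 bp from such a peak, and just outside it 2 wide SP4 peaks that shared only 1 to 10 bp with one. Height went with this gap. Of the 3 groups by fold, the lowest was a median of 1165 bp from another stage's peak and the highest 4750.5 bp.

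Members were farther from start sites than most other open regions. The median distance from the peak's edge to the nearest TSS of any annotated transcript was 8344.5 bp (95% interval 7823 to 8890 bp). It was 2724 bp for the wide SP4 peaks shared by all stages, and the members were farther on 19 of 19 autosomes (Kolmogorov-Smirnov D = 0.284, n = 2080 and 51746, Bonferroni p = 1.48e-142 over 5 comparisons). Against the broad DN-only peaks, with a median of 6460 bp, D was 0.0914 (n = 2080 and 12209, p = 1.1e-12, farther on 18 autosomes). Against the narrow SP4-only peaks, with a median of 7154 bp, D was 0.0515 (n = 2080 and 11662, p = 0.000839, 15 autosomes). Against the broad SP8-only peaks, with 6959 bp, D was 0.0728 (n = 2080 and 1024, p = 0.00653, 13 autosomes). The difference from the broad DP-only peaks, with 7282.5 bp, did not pass the test (D = 0.0546, n = 2080 and 1210, p = 0.0999, 16 autosomes). These two-sided tests compare lists of peaks, which are not replicates, and say nothing of the spread between mice. The SP8-only and narrow SP4-only differences were the least firm. With members and both of these sets kept only at 1000 bp or more from another stage's peak, the Kolmogorov-Smirnov p was 0.494 and 0.71.

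**Figure D3:**
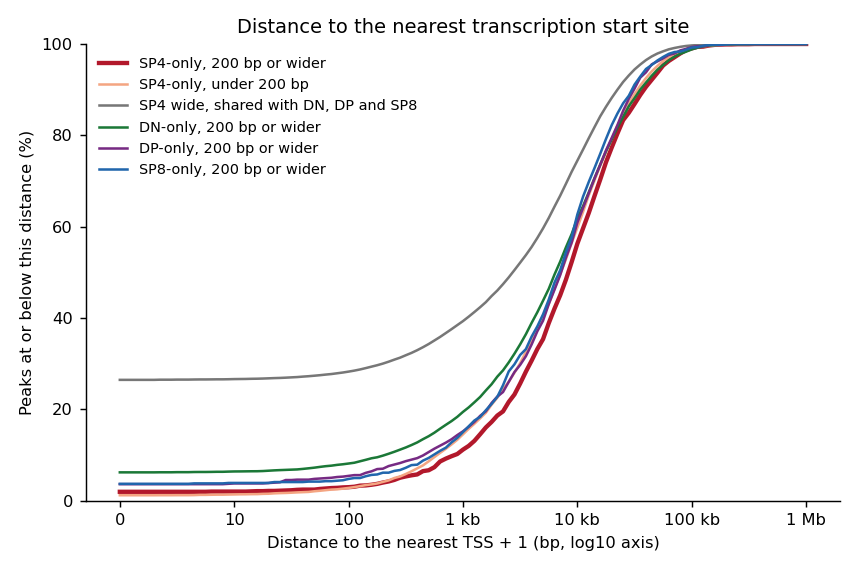
Cumulative share of peaks (y axis, percent) by distance to the nearest TSS (x axis, log10 scale of bp plus 1) for 6 sets. The broad SP4-only curve starts at 1.97% of peaks over a TSS and runs to the right of the others through the middle of the range, and the wide shared peaks start at 26.5%.

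Measured to coding transcripts only, the members' median distance was 22802 bp (20506 to 24626 bp), against 16752.5 bp for SP8-only peaks (n = 2080 and 1024, D = 0.111, p = 4.43e-07) and 21208 bp for DP-only peaks (n = 2080 and 1210, D = 0.0417, p = 0.675). A distance over 50 kb was found for 608 members, 29.2%, and for 20.4% of SP8-only and 29.4% of DP-only peaks. Over 100 kb were 324 members and over 500 kb 23. The members fell on both sides of the nearest start site, 965 upstream and 1074 downstream. Introns held 1175 members (56.5%), intergenic sequence 609 (29.3%) and exons without a promoter 225 (10.8%). Promoters, the 200 bp upstream of a TSS, held 71, or 3.41% (2.72 to 4.28%), against 28.0% of the wide shared, 7.89% of DN-only, 5.29% of DP-only and 4.79% of SP8-only peaks. The narrow SP4-only peaks had a lower share, 2.74% (2.45 to 3.05%).

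Only 15 members covered a coding start site, and Zbtb7b, which encodes ThPOK, was among them. That peak, chr3:89393592-89393846 (255 bp, fold 6.77, percentile 56.4), covered a coding start site of Zbtb7b, which is on the minus strand. The annotated gene reaches upstream of this peak, to chr3:89394776. No DN, DP or SP8 peak was called over it, and the nearest one lay 231 bp away. The DN list held a peak at chr3:89394203-89394312 (fold 2.59), the DP list one at chr3:89394249-89394548 (fold 2.26) and the SP8 list one at chr3:89394078-89394337 (fold 2.83), all just upstream. A second SP4 peak, chr3:89393979-89394653 (fold 2.93), overlapped these. Inside the gene, the other 3 stages shared a peak at chr3:89379717-89380035, with a fold of 14.3 in the DN, 11.1 in the DP and 5.30 in the SP8 list, and another at chr3:89385526-89385877, with folds of 3.94, 4.25 and 3.81. The SP4 list had no peak at either site (coordinates of the DN peaks). The Zbtb7b gene thus had an SP4-only peak at a coding start site, with peaks of all stages just upstream. It lacked an SP4 peak at 2 sites where the other stages had one.

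Other members over coding start sites were mostly lower. The members at Prg4 (fold 9.01), Slc4a4 (7.55) and Rps6kc1 (6.61) were in the upper part of the range, and that at Ccr6, a chemokine receptor of memory and helper T cells, had a fold of 3.94 at percentile 22.9. A member 82 bp upstream of the coding start of Cd226, a costimulatory receptor, had a fold of 2.90 at percentile 4.97 and lay 132 bp from another stage's peak. Another was 58 bp from a noncoding start site in the Cd1d1 region, 41695 bp from the coding start (fold 7.11). Of the members named so far at start sites, those of Slc4a4, Cd226 and Zbtb7b lay within 500 bp of another stage's peak. Other members over a coding start site did too, at Dennd2a (222 bp), Gnal (369 bp), Dmrta2 (463 bp) and Ptprf (482 bp).

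By nearest coding start site, the members fell to 1594 genes, 10.6% of the 15026 genes that were nearest to at least 1 wide SP4 peak. The nearest gene is a label of position and was not tested as a target. Most of these genes had 1 member (1259), 335 had at least 2, together 821 members, and 85 had at least 3, together 321. Bach2 had the most, 9, followed by Gm46320 with 8, Cd83 and Lpp with 7, and Chrm3, Inpp4b, Myc and Tcf7l2 with 6 each. Icos, Jarid2, Nrp1, Rybp, Tox, Cdkal1, Trib2 and Zfp608 had 5. Asap1, Bbs9, Calcrl and Chl1 completed the first 20 with 4 each.

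Genes with many members usually had many wide SP4 peaks too, so the count is read against these. Bach2 encodes a repressor that restrains effector programmes in T cells, and its 9 members were 12.2% of its 74 wide SP4 peaks (6.53 to 21.5%), against 3.2% over the list. For Cd83, a surface protein whose loss impairs CD4 T cell development, it was 7 of 56, and for Lpp 7 of 56. For Icos, a costimulatory receptor of the CD28 family, it was 5 of 25, and for Nrp1, a receptor found on thymus-derived regulatory T cells, 5 of 40. Tox, an HMG box factor needed for CD4 lineage development, had 5 of 52. Higher shares were at Chrm3 (6 of 20, 14.5 to 51.9%), Gm46320 (8 of 33, 12.8 to 41.0%) and Calcrl (4 of 6). These 20 genes were picked by their counts, so their shares are above the background by choice. Some also had broad stage-only peaks of other stages, such as 9 DN-only and 3 SP8-only at Bach2 and 6 DN-only at Chrm3. Others had few, such as 1 DP-only at Gm46320 and 2 DP-only at Cd83.

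The members of 1 gene could be spread or close together, and distances here run to the nearest coding start site. At Bach2, folds ran from 2.52 to 5.86 and all 9 members lay inside the gene, 8948 to 62858 bp from the nearest coding start. Members nearest to Myc lay 284023 to 747851 bp away, 4 of them inside the noncoding genes Pvt1 and Gm41333, and reached a fold of 12.8. Those nearest to Jarid2, a Polycomb-associated factor, were all upstream, at 171114 to 408071 bp. The 6 at Inpp4b, a lipid phosphatase, were intronic with folds of 3.43 to 4.74, and 5 of the 7 nearest to Lpp lay in its introns. The 4 at Bbs9 lay within 40189 bp, and 5 of the 7 nearest to Cd83 within 64664 bp.

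The 10 tallest members reached a fold of 20.2 to 24.7. The tallest, chr7:123386233-123386773 (541 bp), was intronic, 8177 bp downstream of a start site of Lcmt1, a methyltransferase acting on a protein phosphatase. The next were near Phlpp1 (24.1), Gm46320 (22.8), Rora (22.5), Auts2 (22.2) and Ptk2b (21.2). PHLPP1 is an AKT phosphatase, RORA a nuclear receptor of lymphocytes and PTK2B (PYK2) a tyrosine kinase downstream of the T cell receptor. Pde7b, Kbtbd3, Ibtk and Ccdc77 closed the list at 20.6, 20.6, 20.4 and 20.2. These 10 ranked at percentiles 92.8 to 96.6 of the SP4 list. Introns held 8 of the 10 (49.0 to 94.3%), against 56.5% of all members. Promoters lay under 0 of the 100 tallest members (0 to 3.70%), against 3.41% of all members. Both intervals held the share of all members.

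The widest member, chr8:54520921-54521904, measured 984 bp at an exon of Spcs3, a signal peptidase subunit, with a fold of 6.57. The next, near Gm10260, measured 895 bp, and one 405352 bp downstream of the Myc start site 696 bp with a fold of 12.8. Those near Kbtbd3, Zfp217, Ncbp3, Il1r2, Zfyve16, Gramd3 and Dppa4 measured 660 to 693 bp. Il1r2 encodes the decoy receptor of interleukin 1, found on regulatory T cells. Exons were under 13 of the 59 members of 500 bp or more, 22.0% (13.4 to 34.1%), compared with 10.8% of all members. Any shared bp sets this class, so a wider peak can meet an exon more easily, and the part of width was not tested. At least 50% of the bases were repeat-masked in 5 of these 59 and in 156 of all 2080 members.

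Gene lists were compared by the share of their wide SP4 peaks that were members. The CD4 lineage list gave 15 of 420 peaks, 3.57% (2.18 to 5.81%), with members nearest to 8 of its 14 genes, near the 3.2% of all wide SP4 peaks. Beside Zbtb7b and Tox, these were Gata3 (2 of 48 wide peaks), Satb1 (2 of 79), Runx1 (2 of 72), Lef1 (1 of 44), Tcf12 (1 of 17) and Myb (1 of 14). The CD8 and cytotoxic list gave 0 of 84, with a Wilson interval that reached 4.37%, and 4 of 95 among wide SP8 peaks. So few peaks cannot separate the CD8 list from the background.

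At Gata3 the members lay far downstream, at 225284 bp (fold 4.74) and 684705 bp (fold 17.3, percentile 89.1). The second, chr2:9193135-9193616, overlapped an exon of another annotated transcript. Of the CD4 lineage list's other members, that at Lef1 had a fold of 10.8, 106604 bp upstream, and those at Runx1 had folds of 5.45 and 10.5, 81291 and 244307 bp upstream. The Satb1 members (8.77 and 3.79) lay 194632 bp downstream and 176889 bp upstream. SATB1 organizes chromatin in thymocytes and RUNX1 acts on both lineages. Apart from Zbtb7b and Tcf12, whose member was 5832 bp upstream, the closest of these was that at Myb, 39975 bp downstream of a start site.

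Costimulation genes gave 11 of 150 wide peaks, 7.33% (4.14 to 12.7%). Icos had 5 and Ctla4, the inhibitory receptor beside it, had 3 of 16, so 8 of the 11 came from 1 locus, and Cd226, Tnfsf8 and Tnfsf11 had 1 each. Among wide SP8 peaks the same list gave 9 of 149 SP8-only peaks, against 1.64% over that list. The regulatory T cell list, which shares Ctla4, gave 8 of 137 (5.84%, 2.99 to 11.1%), all at Ctla4 and Nrp1. T helper effector genes gave 11 of 192 (5.73%, 3.23 to 9.97%), from Rora (4), Il21 (3), Maf (2), Il2 and Bcl6 (1 each). IL-2 and IL-21 are helper cytokines, and MAF and BCL6 are factors of follicular helper cells.

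The intervals of the other T cell lists held the background share. T cell receptor signalling gave 10 of 310 (3.23%), with members at genes that include Plcg1, Rasgrp1, Cd2, Prkcq, Cd5 and Fyn. The taller of 2 members at Plcg1, the phospholipase of this pathway, had a fold of 14.9. Positive selection genes gave 6 of 145 (4.14%), 3 of them at Bcl2, and egress and naive T cell genes 13 of 366 (3.55%), 4 of them at Foxp1 and 3 at Ets1. NF-kB, NFAT and AP-1 genes gave 13 of 278 (4.68%), of which 9 were at Bach2. The NKT and innate-like list gave 1 of 68 and the DP programme list 4 of 52 (7.69%, 3.03 to 18.2%), including members at Cd1d1 and Arpp21. The DP programme list had the highest share of all T cell lists, on few peaks, and its interval held 3.2%, as did those of the other 5 lists named here and of the CD4 lineage and regulatory T cell lists. The intervals were not widened for the 19 lists compared.

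Lists of other cell types gave few members: 0 of 34 peaks for B cell genes, 1 of 24 for myeloid (Fcgr3), 2 of 69 for dendritic (Tcf4), 0 of 35 for natural killer, 1 of 21 for erythroid (Tal1), 0 of 21 for thymic epithelial, 2 of 25 for neuronal (Rbfox3) and 0 of 5 for hepatocyte genes. For the counts of 0, the Wilson intervals reached 10.2% for B cell, 9.89% for natural killer, 15.5% for thymic epithelial and 43.4% for hepatocyte genes.

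**Figure D4:**
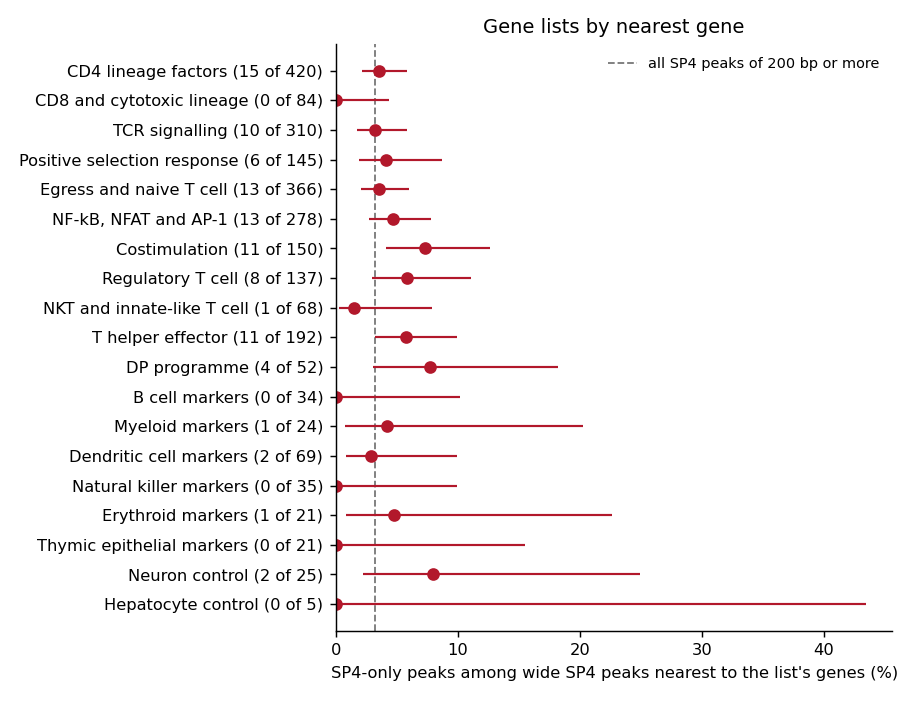
Share of wide SP4 peaks nearest to the genes of each list that were SP4-only (x axis, percent), with members and peaks in parentheses beside each list (y axis). Points are shares, lines 95% Wilson intervals and the dashed line the 3.2% of all wide SP4 peaks; costimulation, with 11 of 150, and T helper effector genes, with 11 of 192, have intervals that start above it, the latter at 3.23%.

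Along the chromosomes, most members stood alone. With neighbours linked at up to 50 kb, 1528 members (73.5%) had none, 212 pairs formed, and 39 clusters of at least 3 held 128 members, 6.15% (5.20 to 7.27%). The median gap between neighbours was 383675 bp. Of the broad DP-only and SP8-only peaks, 4.05% and 4.20% were in such clusters, and of the DN-only peaks 40.6%, but these sets differ in number, and more peaks on the same genome cluster more. Counted in windows of 1 Mb, the variance was 2.06 times the mean for members, 1.75 for DP-only and 1.62 for SP8-only peaks, where an even random scatter gives a ratio near 1. The larger sets had higher ratios, 4.95 for DN-only, 5.54 for narrow SP4-only, 24.8 for wide shared and 28.6 for all wide SP4 peaks. This ratio also rises with the number of peaks per window, whose mean was 0.841 for members and 26.3 for all wide SP4 peaks. It therefore does not rank these sets by unevenness. The share of wide SP4 peaks that were members ran from 2.12% on chromosome 11 to 4.42% on chromosome 6.

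The densest window, chr4:32000001-33000000, held 13 members, 9 nearest to Bach2. Next were chr12:106000001-107000000 with 12, of which 8 were nearest to Gm46320 and 2 to Vrk1, and chr13:44000001-45000000 with 11, of which 6 were nearest to Cd83 and 5 to Jarid2. The window chr6:100000001-101000000 held 9, of which 5 were nearest to Rybp. In these 4 windows the members were 11.6%, 18.8%, 12.2% and 15.8% of the wide SP4 peaks, against 3.2% of the whole list, having been picked as the densest.

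The 2 largest clusters had 5 members each. That of Cd83 spanned 64664 bp, chr13:44087077-44151740, and began 301965 bp downstream of the coding start site, in intergenic sequence and noncoding genes. Its folds ran from 3.77 to 7.58, and 6 of the 11 SP4 peaks in it were SP4-only. The other lists had 3 DN, 3 DP and 5 SP8 peaks there, none of them found at 1 stage only. That of Rybp and Shq1 spanned 113710 bp, with folds of 2.81 to 6.87, and there the other stages were open too, with 16 DN, 15 DP and 10 SP8 peaks beside 19 SP4 peaks.

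Clusters of 4 members lay at Bbs9, Bach2, Tmem64, Il2 and Il21, Rragd, Tbx19 and Cox10. The Bach2 cluster spanned 46721 bp and was low, with folds of 3.07 to 3.44. That of Il2 and Il21 spanned 64863 bp, with folds of 3.85 to 7.08, and held 15 SP4 peaks beside 12 DN, 7 DP and 9 SP8 peaks. Its Il2 member lay 35183 bp upstream of the Il2 start site, and its Il21 members 6561 to 50536 bp downstream of the Il21 start site, the nearest of them in an intron of the gene. The Tmem64 cluster spanned 49452 bp, with folds up to 12.0, and 7 of the 11 SP4 peaks in it were SP4-only. In 3 clusters of 3 members, near Itga8 and Mindy3, at Bod1l and near Zfp608, no DN, DP or SP8 peak was called at all. The Bod1l cluster had folds of 8.15 to 10.9 within 16696 bp.

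**Figure D5:**
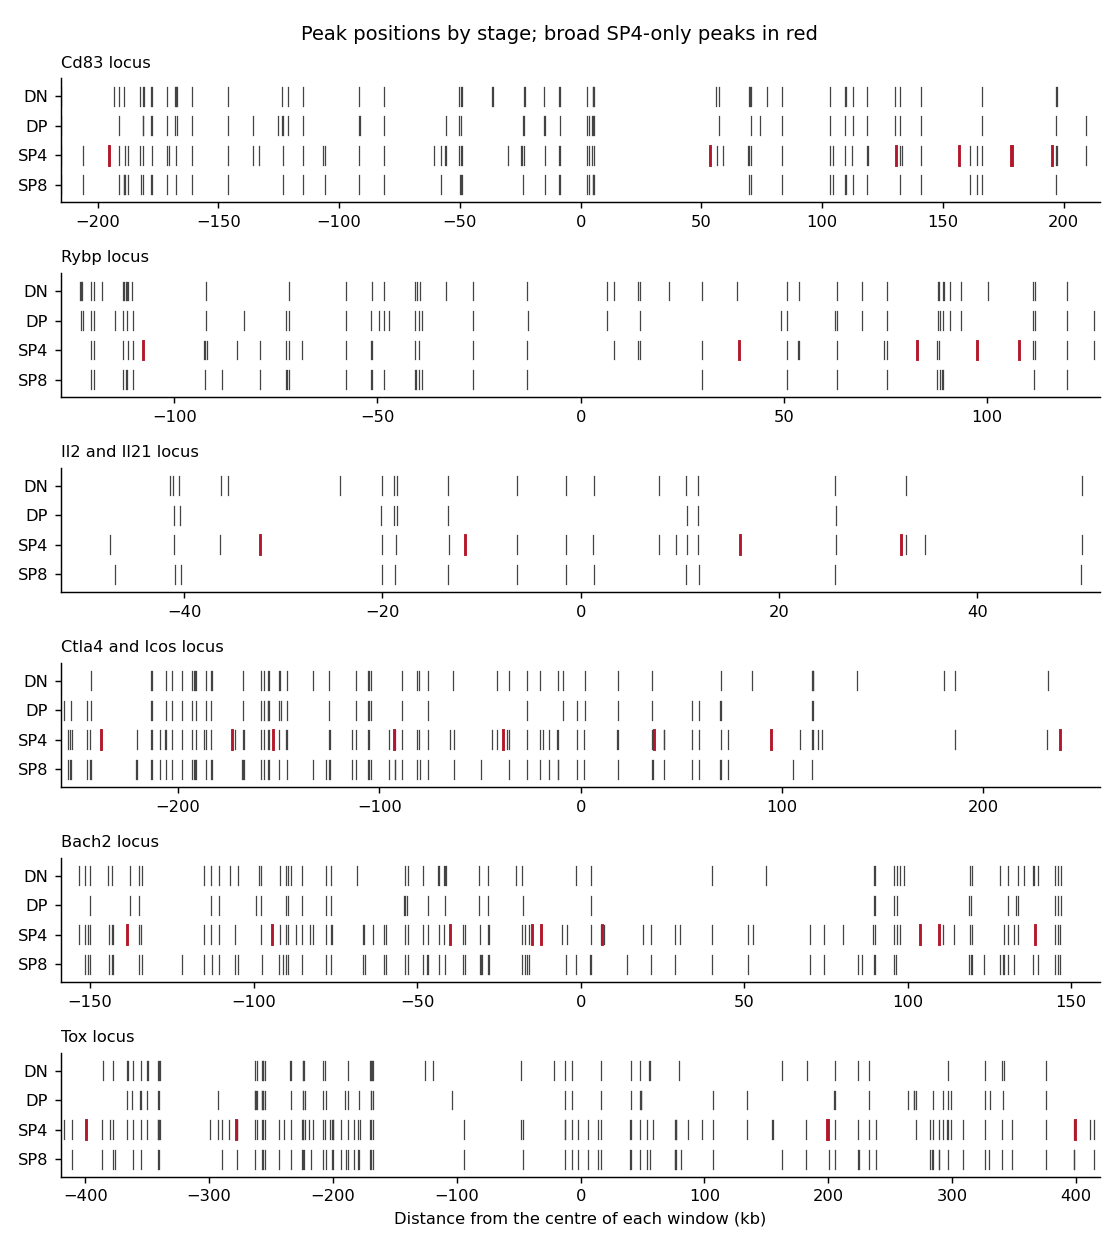
Position of each peak (vertical marks; x axis, kb from the centre of the window) in the DN, DP, SP4 and SP8 lists (rows) at 6 loci, with the broad SP4-only peaks in red. The members, 4 at Il2 and Il21, 5 at Rybp and Tox, 7 at Cd83, 8 at Ctla4 and Icos and 9 at Bach2, stand among peaks that the stages share and not as blocks open in SP4 alone.

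In the windows of these loci the SP4 list had 83 peaks at Bach2, against 57 DN, 33 DP and 75 SP8 peaks, and 22 of them were SP4-only at any width. At Ctla4 and Icos the SP4 list had 79 against 50, 41 and 67, and at Tox 97 against 52, 54 and 74. At Cd83 it had 68 against 53, 47 and 48, and at Il2 and Il21 21 against 19, 9 and 13. At Rybp the DN list had more, 45 against 41 SP4 peaks. Members at the Ctla4 and Icos locus had folds of 3.25 to 8.97, the tallest 38134 bp downstream of the Icos start site, and those at Tox 3.29 to 8.72, the tallest 366810 bp upstream.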

How the data were processed

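The 4 deposited peak lists, 1 per stage, were used. Per their methods, the authors aligned trimmed reads with BWA (mm10), discarded duplicate, improperly paired and ambiguous alignments, down-sampled the libraries to their median depth and, after pooling mice within a stage, ran MACS2 with a 5% FDR, extending each shifted read end to a fixed length. Blacklisted regions are absent. Pooling hides differences between mice, and a region without a call may hold signal under the threshold. The deposited values are peak coordinates with the summit, a fold enrichment, which is a ratio to local background computed by the authors, and the −log10 q-value the authors deposited from MACS2.

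Peaks sharing at least 1 bp counted as overlapping. Height was given as fold enrichment and as its percentile within the list. Starts were taken from GENCODE M21 and RefSeq (249590 transcripts on 19 autosomes), promoters were the 200 bp upstream of a TSS, and the nearest gene used 21753 coding genes. All members lay on these autosomes, so genes of the sex chromosomes could not appear among the nearest genes. Distances were compared with the two-sided Kolmogorov-Smirnov test (scipy 1.17.1) and Bonferroni correction over 5 comparisons. Shares carry 95% Wilson intervals. Short words of 17 motifs were matched on both strands without mismatch (pysam 0.24.0), and 19 gene lists with 223 genes were used. Genes are named if they were among the 20 with the most members, in a list and nearest to a member, nearest to 1 of the 10 tallest or 10 widest members, or in the 5 largest clusters; others given were chosen after their values were seen. The members and lists were chosen with earlier results of these data known. The code was tested on simulated data. Read counts, footprints and single libraries were not analysed here, and a few items of the lists and motifs are not reported here.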

Additional observations from a re-analysis of the deposited data

How the results depend on the processing

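No paired analysis was possible because the mouse numbers shared by the stages are lost in the pooled lists, and for the same reason no replicate could be left out. The width limit set the number of members, which was 4858 at 150 bp, 1044 at 250 bp and 580 at 300 bp. With it, the share in clusters went to 21.6%, 2.30% and 0.517%. It was 3.68% for members at least 1000 bp from another stage's peak, and 2.79% or 13.6% with a linking distance of 25 or 100 kb.

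The median TSS distance moved to 9029 bp for members at least 1000 bp from another stage's peak and to 22802 bp for protein-coding transcripts. In the tests, limits on the distance to another stage's peak applied to the members and to all stage-only sets compared. Against SP8-only peaks the Kolmogorov-Smirnov test was no longer passed at 250 bp (D = 0.0733) or 300 bp (D = 0.0561). Nor was it passed with both sets at least 100 bp (n = 2007 members, D = 0.0633, p = 0.0523) or 1000 bp (D = 0.0607) from another stage's peak. Against narrow SP4-only peaks it was not passed at 300 bp (D = 0.064) or at 1000 bp from another stage (D = 0.0332). Against DP-only peaks it was passed at 150 bp (D = 0.064), at an SP4 q-value of at most 0.001 (D = 0.0612) and with equal numbers of peaks per list (D = 0.0854), and at 300 bp the sign turned, with a difference in medians of -766 bp (n = 580 members, D = 0.0964, p = 0.24). The cause of these changes was not tested. Against the wide shared and DN-only peaks the test was passed under every alternative run.

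The promoter share was 1.44% for coding transcripts and 7.26% for promoters of 1000 bp. The GATA share was 22.4%, 28.4% and 30% at minimum widths of 150, 250 and 300 bp, 12.9% in 100 bp windows and 32.4% over whole peaks. The TCF7/LEF1 share was 16.8% at 150 bp, 22.1% at 1000 bp from another stage's peak, 9.71% in 100 bp windows and 23.0% over whole peaks. For all other combinations of these results and alternatives, 67 in number, values kept their direction and call.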
